A study of Rattus norvegicus with 9 samples.

Results

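The core circadian clock genes were followed in the kidney of Sprague-Dawley rats, an outbred laboratory stock, dosed with CMS, short for colistin methanesulfonate sodium, which releases the antibiotic colistin in the body. The set holds 10 gene symbols, namely Bmal1, Npas2, Cry1, Per1, Per2, Per3, Nr1d1, Nr1d2, Dbp and Tef, and every probe set that the platform annotation pairs with exactly 1 of them was taken. That gave 16 probe sets of 10 genes, out of 31099 probe sets on the array and 14217 genes with a probe set of their own. The symbols were selected on log2 differences between the dose groups, which earlier results of these data had shown, and on their place in the clock, while Clock, Cry2 and Hlf, which belong to the same loops, were left out of the set. The differences of the 10 genes between doses are therefore given as descriptions with no p-value. Counts of those past the threshold stand beside the share of all genes, with nothing read from them, and p-values are given for other clock genes. The rats were 8 weeks old when bought, were acclimated for 1 week under a 12 h light and dark cycle, and received an intraperitoneal injection on each of 7 days. The vehicle group received 0 mg/kg (CMS itself was diluted in saline), CMS25 received 25 mg/kg and CMS50 received 50 mg/kg CMS, with 3 arrays in each group, labelled as biological replicates, and the whole right kidney as the tissue. The labels record no lesion in the vehicle group, basophilic and dilated tubules in CMS25, and necrotic cells, degenerated tubules and casts in CMS50. They give no sex, no time of kill and no day of array processing.

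The clock is a feedback loop of transcription that runs in nearly every cell, including those of the kidney tubules. Bmal1 and its partners Clock and Npas2 bind E-box sequences and switch on the Per and Cry genes, whose proteins return to the nucleus and shut that activity off. A second loop joins the nuclear receptors Nr1d1 and Nr1d2 (REV-ERB alpha and beta), which repress Bmal1 through ROR elements, to the ROR receptors, which activate it, while Dbp, Tef and Hlf carry the signal to output genes through D-boxes. In rodent tissues the RNA of Bmal1 and Npas2 peaks at about the opposite time of day to that of Dbp and Nr1d1. The whole kidney was homogenised, so a lower signal from fewer cells of a type and from less RNA per cell cannot be told apart.

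The promoters of the set are shown because the loops act on each other through E-boxes, D-boxes and ROR elements. The window is the 250 bases before the annotated start of transcription, from RefSeq on the rat build GRCr8, and 9 of the 10 genes (all but Cry1) had 1 or, for Nr1d1, 2 such windows, 10 in all. The motifs searched, on both strands, were the E-box CACGTG, the E-box variant CACGTT, the D-box TTATGTAA and the ROR element TAGGTCA. Capitals mark a match on either strand. The Bmal1 window (chr1:176766078-176766327, plus strand) held 1 ROR element, whose first base lies 16 bases before the start. That of Per2 (chr9:99496994-99497243, minus strand) held 1 D-box and 1 E-box variant, 192 and 62 bases before it. The windows of Nr1d1 lie at chr10:84231813-84232062, minus strand, with 1 E-box variant, and at chr10:84229455-84229704, minus strand, with 1 E-box. That of Tef (chr7:115206577-115206826, plus strand) held 1 E-box.
Bmal1: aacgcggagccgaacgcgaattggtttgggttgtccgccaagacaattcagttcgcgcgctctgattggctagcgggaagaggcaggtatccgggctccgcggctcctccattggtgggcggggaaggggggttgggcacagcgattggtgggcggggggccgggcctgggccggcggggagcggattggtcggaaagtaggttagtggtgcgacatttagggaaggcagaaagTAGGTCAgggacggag
Per2: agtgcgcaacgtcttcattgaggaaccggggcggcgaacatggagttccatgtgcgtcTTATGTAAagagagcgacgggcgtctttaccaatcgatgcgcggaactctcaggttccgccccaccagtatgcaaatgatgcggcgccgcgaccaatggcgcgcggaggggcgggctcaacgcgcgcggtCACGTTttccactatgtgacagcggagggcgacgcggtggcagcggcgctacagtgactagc
Nr1d1, first start: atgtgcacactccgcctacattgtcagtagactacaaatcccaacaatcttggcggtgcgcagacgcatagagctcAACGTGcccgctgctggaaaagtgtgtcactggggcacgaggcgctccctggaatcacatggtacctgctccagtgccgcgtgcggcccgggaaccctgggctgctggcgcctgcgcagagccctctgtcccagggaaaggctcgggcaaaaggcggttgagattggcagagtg
Nr1d1, second start: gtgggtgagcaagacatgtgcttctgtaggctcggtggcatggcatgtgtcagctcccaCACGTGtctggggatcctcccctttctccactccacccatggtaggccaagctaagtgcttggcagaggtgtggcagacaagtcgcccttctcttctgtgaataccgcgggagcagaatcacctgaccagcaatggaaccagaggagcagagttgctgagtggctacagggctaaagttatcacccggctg
Tef: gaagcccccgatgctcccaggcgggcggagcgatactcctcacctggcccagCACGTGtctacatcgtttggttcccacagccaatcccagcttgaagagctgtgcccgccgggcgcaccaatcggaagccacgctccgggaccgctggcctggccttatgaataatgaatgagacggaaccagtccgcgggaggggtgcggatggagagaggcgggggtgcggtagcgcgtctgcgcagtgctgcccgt
Of 33469 windows of the same length, 5.59% held the E-box, 4.07% the variant, 0.828% the D-box and 2.26% the ROR element. In the windows of Npas2, Per1, Per3, Nr1d2 and Dbp none of these letters was found, which says nothing about elements elsewhere in those genes.

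All values are log2 intensities, and all 10 genes had at least 1 probe set with a mean of 5 or more over the 9 arrays, the minimum for testing a gene. For each gene the probe set with the highest mean was used, and 3 of the 16 probe sets, 1 each of Per3, Nr1d2 and Tef, had means under 5. Over the 10337 genes tested, array pairs correlated between 0.916 and 0.989. CMS50 replicate 3 stood apart from the other CMS50 arrays, with a mean correlation of 0.978 to its own group and 0.971 to the vehicle group. The other 2 CMS50 arrays had 0.983 and 0.982 to their own group, against 0.935 and 0.929 to the vehicle group. The defining markers of the labelled tissue were bright, with Umod between 11.34 and 13.82 and Lrp2 between 13.14 and 13.46 on all arrays. CMS25 replicate 1 is set apart from the other CMS25 arrays below, in the clock genes, in fibroblast markers and in part of the adipose markers. Over all genes it was not, with a mean correlation to its own group of 0.9807, against 0.9805 and 0.9811 for replicates 2 and 3. CMS25 differences of the clock genes that stand out are given with and without it, a choice made on the clock values themselves. Leaving it out made them larger, and values without another CMS25 array are given beside them. P-values for genes outside the set come from limma, with Benjamini-Hochberg adjustment over all genes tested. Each sets a difference between dose means against the spread between rats within a dose, shared over all 3 groups.

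The activators of the first loop were lower in CMS50 kidneys than in vehicle kidneys. Bmal1 (probe set 1370510_a_at), the partner without which the loop does not run, had values of 6.62, 6.32 and 6.39 in the vehicle arrays, in the order of their replicate numbers. The CMS25 arrays had 6.75, 4.63 and 5.27, and the CMS50 arrays had 4.86, 4.93 and 4.88. The 3 CMS50 arrays lay within 0.07 of each other and below every vehicle array. The CMS25 arrays spread over 2.12, from the highest to the lowest value of the series. All 3 CMS50 values and that of CMS25 replicate 2 were dim, under 5, where changes and spread are compressed. The group means were 6.44 ± 0.16 for vehicle, 5.55 ± 1.09 for CMS25 and 4.89 ± 0.04 for CMS50 (SD, n = 3 each). The log2 difference CMS50 minus vehicle was -1.55 with a standard error (SE) of 0.42, a 2.94-fold lower level. Each SE comes from the fit, which shares the spread of all 3 groups, so that of Bmal1 includes the CMS25 SD of 1.09. At CMS25 the difference from vehicle was -0.89 (SE 0.42), and it was -1.49 without CMS25 replicate 1, -0.43 without CMS25 replicate 2 and -0.75 without CMS25 replicate 3. CMS50 and CMS25 differed by -0.66 (SE 0.42), and by -0.06 without CMS25 replicate 1.

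Npas2 (1383439_at), a relative of Clock that pairs with Bmal1, had 6.67, 6.63 and 7.21 in vehicle, 7.21, 6.31 and 5.80 in CMS25 and 6.14, 5.57 and 5.76 in CMS50. All CMS50 arrays lay below all vehicle arrays, and CMS25 replicate 1 equalled the highest vehicle array to the second decimal. The difference was -1.01 (SE 0.33) for CMS50 minus vehicle and -0.39 (SE 0.33) for CMS25 minus vehicle. The CMS25 value was -0.78 without CMS25 replicate 1 and -0.07 without CMS25 replicate 3.

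Cry1 (1392640_at), the stronger of the cryptochrome repressors, was lower at both doses. It had 7.60, 7.12 and 7.14 in vehicle, 6.83, 5.91 and 6.03 in CMS25 and 6.42, 6.37 and 6.15 in CMS50. No treated array reached a vehicle array, and the CMS25 and CMS50 arrays overlapped. The means were 7.29 ± 0.27, 6.25 ± 0.50 and 6.31 ± 0.14 in rising order of dose (SD, n = 3 each). Cry1 differed from vehicle by -0.98 (SE 0.23) in CMS50 and by -1.04 (SE 0.23) in CMS25, and CMS50 minus CMS25 was 0.06 (SE 0.23). Without CMS25 replicate 1 these were -1.32 for CMS25 minus vehicle and 0.35 for CMS50 minus CMS25. Without CMS25 replicate 2 they were -0.86 and -0.11.

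**Figure D1:**
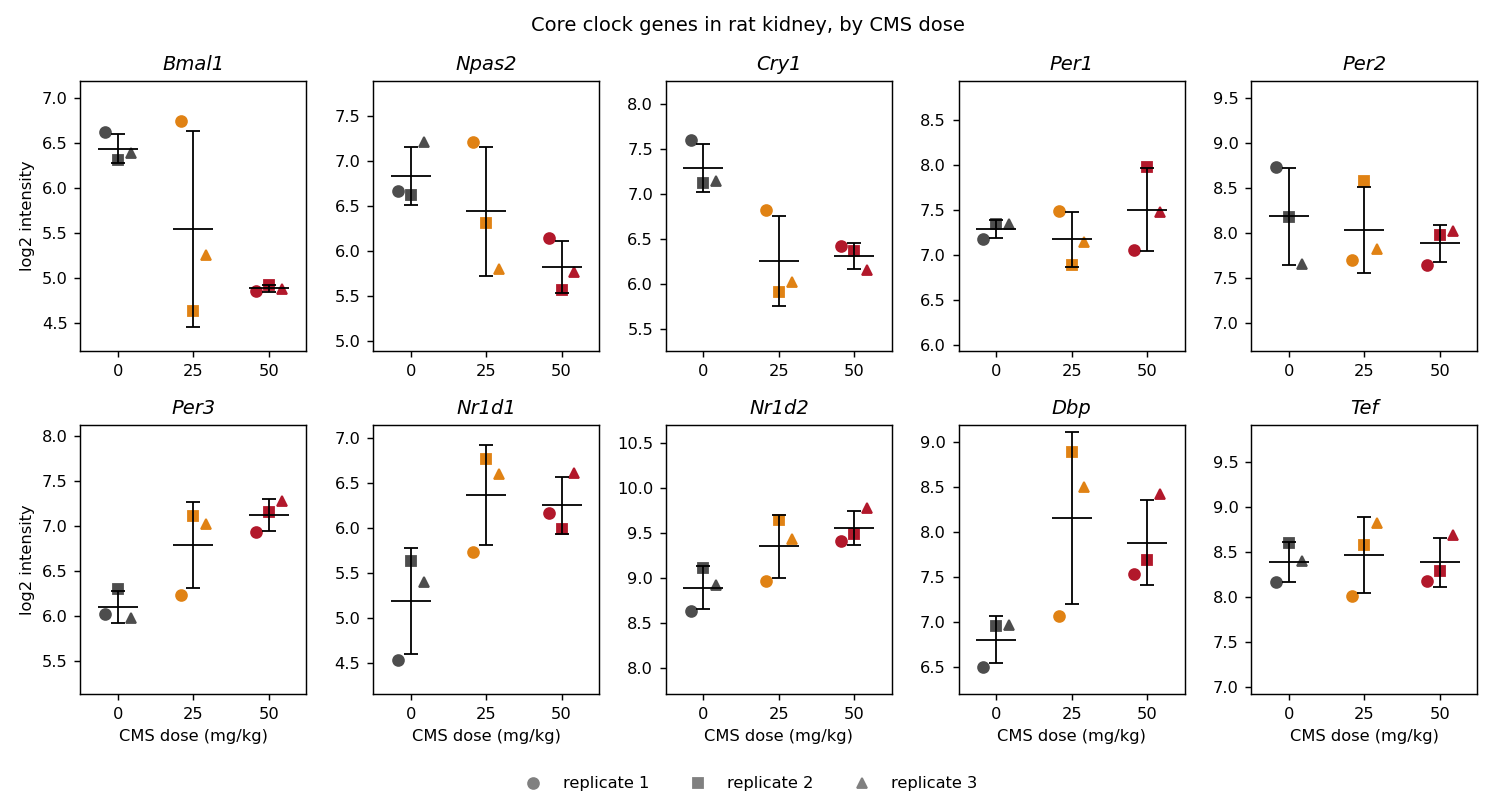
Log2 intensity of the 10 clock genes on each array (symbols, by replicate number) at 0, 25 and 50 mg/kg CMS, with group mean and SD (bars, n = 3); every panel spans 3 log2 units. The 3 CMS50 values of Bmal1 lie between 4.86 and 4.93, and CMS25 replicate 1 sits near the vehicle arrays for Bmal1, Npas2, Per3, Nr1d2 and Dbp.

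Of the second loop, Nr1d1 was higher at both doses and Nr1d2 at CMS50. Nr1d1 (1370816_at), the main repressor of Bmal1 transcription, had 4.53, 5.64 and 5.40 in vehicle, 5.73, 6.77 and 6.60 in CMS25 and 6.17, 5.99 and 6.61 in CMS50. Every treated array was above every vehicle array, but CMS25 replicate 1 was only just above vehicle replicate 2. The difference from vehicle was 1.06 (SE 0.34) in CMS50 and 1.18 (SE 0.34) in CMS25. Vehicle replicate 1 was dim, and without it these differences were 0.73 in CMS50 and 0.85 in CMS25. CMS25 minus vehicle was 1.498 without CMS25 replicate 1 and 0.98 without CMS25 replicate 2.

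Nr1d2 (1390430_at), which acts beside Nr1d1, had 8.64, 9.11 and 8.92 in vehicle, 8.97, 9.65 and 9.43 in CMS25 and 9.41, 9.49 and 9.77 in CMS50. The CMS50 arrays were all above the vehicle arrays, whereas CMS25 replicate 1 lay among the vehicle arrays. The difference was 0.67 (SE 0.19) for CMS50 minus vehicle and 0.46 (SE 0.19) for CMS25 minus vehicle. The CMS25 value was 0.65 without CMS25 replicate 1 and 0.31 without CMS25 replicate 2. A further probe set of Nr1d2, 1370541_at, gave 0.42 in CMS50 and 0.48 in CMS25, and the last, 1370540_at, had means from 3.09 to 3.14 in the 3 groups, which is dim, and gave -0.06 and -0.05.

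The 3 Period genes, whose proteins join the cryptochromes in the repressor complex, did not move alike. Per3 (1378745_at) had 6.02, 6.30 and 5.98 in vehicle, 6.24, 7.12 and 7.02 in CMS25 and 6.93, 7.16 and 7.28 in CMS50. The CMS50 arrays lay above the vehicle arrays, and CMS25 replicate 1 fell inside the vehicle range. The difference was 1.02 (SE 0.22) for CMS50 minus vehicle and 0.69 (SE 0.22) for CMS25 minus vehicle. The CMS25 value was 0.97 without CMS25 replicate 1 and 0.53 without CMS25 replicate 2. The second probe set of Per3, 1388239_at, was dim, with means of 3.47, 3.57 and 3.75 in rising order of dose, and gave 0.29 for CMS50 minus vehicle.

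Per1 (1374855_at), which hormones and stress also induce directly, had 7.18, 7.34 and 7.35 in vehicle, 7.49, 6.88 and 7.14 in CMS25 and 7.05, 7.98 and 7.48 in CMS50. The groups overlapped, CMS50 minus vehicle was 0.21 (SE 0.22, 95% interval of the fit -0.29 to 0.72), and without CMS50 replicate 2 it was -0.02. Per2 (1368303_at) had 8.73, 8.18 and 7.65 in vehicle, 7.71, 8.58 and 7.82 in CMS25 and 7.65, 7.98 and 8.03 in CMS50. Its groups overlapped as well, with a CMS50 minus vehicle difference of -0.30 (SE 0.29, interval -0.96 to 0.36), which was -0.03 without vehicle replicate 1 and -0.57 without vehicle replicate 3. The other probe set of Per2, 1378560_at, had 7.29, 7.04 and 7.09 in vehicle, 7.09, 7.17 and 7.13 in CMS25 and 6.90, 6.91 and 6.77 in CMS50. On that probe set all CMS50 arrays were below all vehicle arrays, by -0.28 between the means. The 2 Per2 probe sets thus differ in whether CMS50 and vehicle arrays overlap.

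Of the output factors that bind D-boxes, Dbp was higher after treatment, while the Tef groups overlapped. Dbp (1387874_at), whose RNA has one of the widest daily swings known in rodent tissues, had 6.50, 6.96 and 6.97 in vehicle, 7.07, 8.90 and 8.51 in CMS25 and 7.54, 7.70 and 8.42 in CMS50. Every treated array was above every vehicle array, with CMS25 replicate 1 nearest to them and CMS25 replicates 2 and 3 above all CMS50 arrays. The means were 6.81 ± 0.27, 8.16 ± 0.96 and 7.89 ± 0.47 in rising order of dose (SD, n = 3 each). The difference from vehicle was 1.08 (SE 0.42) in CMS50 and 1.35 (SE 0.42), or 2.55-fold, in CMS25. The CMS25 value was 1.89 without CMS25 replicate 1 and 0.98 without CMS25 replicate 2. Tef (1390819_at) had 8.16, 8.61 and 8.40 in vehicle, 8.01, 8.57 and 8.83 in CMS25 and 8.18, 8.29 and 8.69 in CMS50, and its groups overlapped. CMS50 minus vehicle was -0.01 (SE 0.22, interval -0.50 to 0.49) for Tef. On a second Tef probe set, 1385374_at, CMS25 minus vehicle was 0.43 and CMS50 minus CMS25 was -0.58, and the third, 1369919_at, was dim with means of 4.72 to 4.83.

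Set side by side, 7 of the 10 genes had CMS50 arrays that did not overlap the vehicle arrays, 3 lower (Bmal1, Npas2, Cry1) and 4 higher (Per3, Nr1d1, Nr1d2, Dbp), where 49.6% of all genes tested did not overlap. At an adjusted p under 0.05, 6 of the 10 were called at CMS50 against vehicle, 3 higher and 3 lower, beside 31.1% of all genes (19.6% higher and 11.4% lower). Leaving out vehicle replicate 1 or 3 or CMS50 replicate 1 or 2 left 2 called, beside 2154, 2142, 1711 and 1687 of all 10337 genes. Leaving out CMS50 replicate 3 left 3, beside 3546 of all genes. At CMS25 against vehicle, limma called 0 of the 10 genes and 0 of all genes (0% of those tested, smallest adjusted p = 0.523), and 604 of the 10337 had an unadjusted p under 0.05. There, 3 of the 10 had arrays that did not overlap (12.1% of all genes): Cry1, Nr1d1 and Dbp. CMS50 against CMS25 also called 0 of the 10, beside 30.3% of all genes called (20.8% higher and 9.43% lower). Arrays of 0 of the 10 were free of overlap there, and 45.7% of all genes were. Nothing is read from the counts of these 3 comparisons, since the genes were chosen with the dose differences known.

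The median absolute difference from vehicle over the 10 genes was 0.57 in CMS25 and 0.99 in CMS50, against 0.09 and 0.24 over all genes tested. Of all genes, 0.0774% had a larger absolute difference than Dbp in CMS25, 0.135% than Nr1d1, 0.164% than Cry1 and 0.252% than Bmal1. In CMS50 the share with a larger difference was 1.86% for Bmal1 and between 5.23% and 13.3% for Dbp, Nr1d1, Per3, Npas2, Cry1 and Nr1d2. In CMS25, 20 genes (0.193%) differed from vehicle by at least 2-fold, Dbp, Nr1d1 and Cry1 among them. These are the differences the genes were chosen on, so their place among all genes is a description and supports nothing. The comparisons with vehicle share the vehicle arrays, so their values are not independent of each other.

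**Figure D2:**
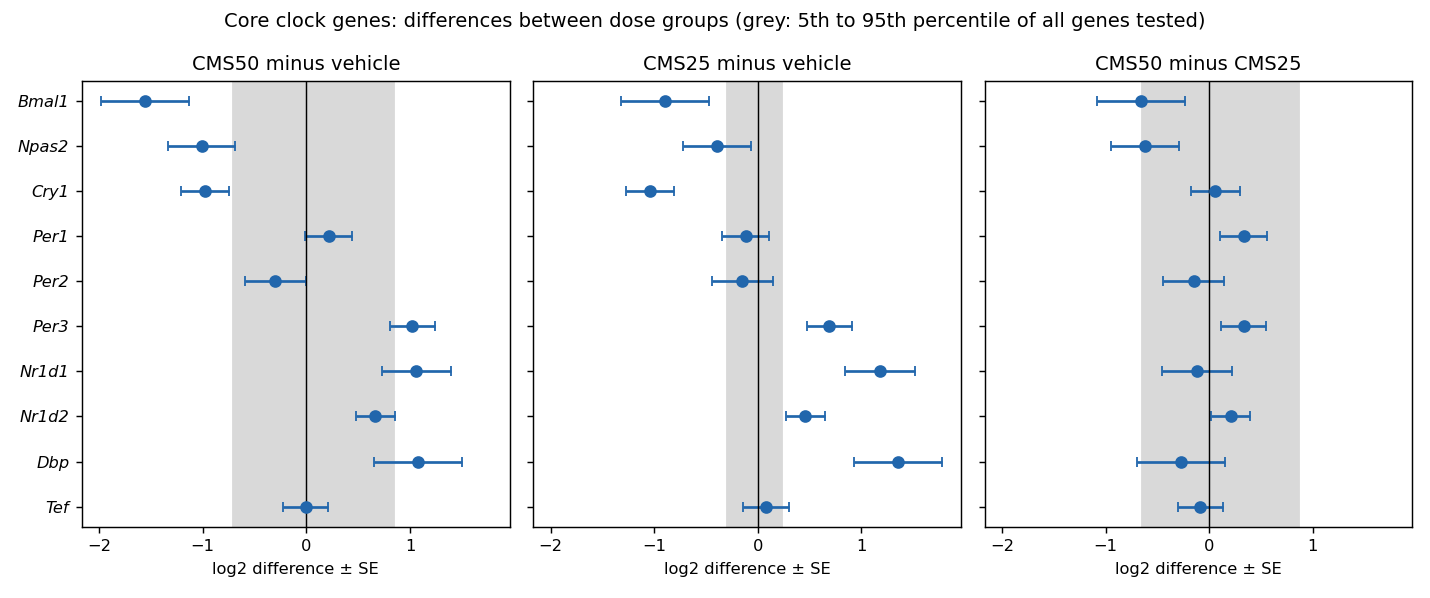
Log2 difference of each clock gene between dose groups (points, bars are the SE of the fit), with the 5th to 95th percentile of all 10337 genes tested in grey. In CMS25 minus vehicle the grey band runs from -0.29 to 0.24 and 7 genes lie outside it, while in CMS50 minus CMS25 only Bmal1, at -0.66, lies at the edge of a band from -0.65 to 0.87.

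Taken array by array, the CMS25 kidneys were not alike. Relative to the vehicle mean, Bmal1 was 0.31 in CMS25 replicate 1, -1.81 in replicate 2 and -1.18 in replicate 3. Dbp was 0.27, 2.09 and 1.70 in the same 3 arrays, and Per3 was 0.14, 1.01 and 0.92. CMS25 replicates 2 and 3 had Bmal1, Npas2 and Cry1 between -1.81 and -0.52 and Dbp, Nr1d1, Nr1d2 and Per3 between 0.54 and 2.09 on this scale. CMS25 replicate 1 had Bmal1 and Npas2 above the vehicle mean, Cry1 at -0.46 and the 4 others between 0.08 and 0.54. In the 3 CMS50 arrays Bmal1, Npas2 and Cry1 lay between -1.58 and -0.69 and the 4 others between 0.52 and 1.61. Over all genes the median absolute distance from the vehicle mean was 0.12 in CMS25 replicate 1, 0.14 in replicate 2 and 0.15 in replicate 3.

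Among the 10337 genes, the CMS25 SD of Bmal1 ranked 25, that of Dbp 42 and that of Npas2 125. In CMS50 the SD of Bmal1 was 0.04, and 94.0% of genes had a larger one, but its 3 values there were dim, under 5. Other readings also set CMS25 replicate 1 apart, though not that array alone. The adipocyte gene Plin1 (1392583_at) had 6.52 in CMS25 replicate 1, against 3.29 to 3.56 on the 8 other arrays. Of the other adipose markers, Adipoq (7.44) and Fabp4 (9.52) were also highest on that array. Cidec, at 8.89, was below its vehicle arrays (9.06 to 9.73), and Lep, at 3.81, was dim and within its vehicle range. Summed on the linear scale, the 5 fibroblast markers had 1804 in CMS25 replicate 1 and 609 and 574 in the other CMS25 arrays, with 942 to 1117 in vehicle. The 5 adipose markers summed to 1485 in CMS25 replicate 1, 598 and 1156 in the other CMS25 arrays and 678 to 1109 in vehicle. In the 6 collecting duct markers CMS25 replicate 2 stood apart, with 6676 against 3755 and 3923 in replicates 1 and 3 and 4065 to 4989 in vehicle. The part of these markers in the clock values was not tested.

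**Figure D3:**
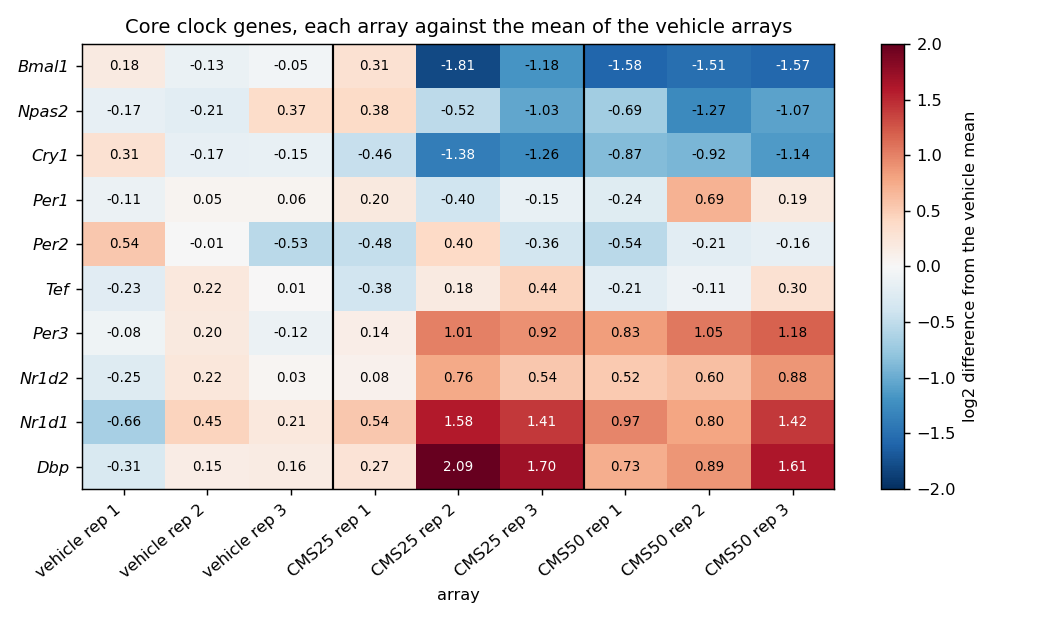
Log2 difference of each clock gene (rows) on each array (columns) from the mean of the 3 vehicle arrays, on a colour scale from -2 to 2, with the values printed in the cells. CMS25 replicate 1 has Bmal1 at 0.31 and Dbp at 0.27, while CMS25 replicates 2 and 3 have Bmal1 at -1.81 and -1.18 and Dbp at 2.09 and 1.70.

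Variation among rats of 1 dose was examined after subtracting each group's mean, which removes the dose difference used to choose the genes. In each of the 3 groups the array with the highest Cry1 was also the one with the lowest Dbp, the lowest Nr1d2 and the lowest Tef, and in each group it was replicate 1. Relative to its own group mean, replicate 1 had Dbp at -0.31 in vehicle, -1.08 in CMS25 and -0.35 in CMS50, and Cry1 at 0.31, 0.57 and 0.11 in the same order. Over the 9 arrays centred in this way, Dbp correlated with Cry1 at r = -0.96 (Spearman's rho -0.90), with Nr1d2 at 0.94 (rho 0.88), with Per3 at 0.92 (rho 0.83), with Tef at 0.88 (rho 0.83) and with Nr1d1 at 0.86 (rho 0.75). Without the 2 arrays farthest from the median of Dbp, CMS25 replicates 1 and 2, these values were -0.87, 0.88, 0.73, 0.94 and 0.80 over 7 arrays. Those 7 were not centred anew, so CMS25 replicate 3 still carried the deviations of the 2 left out. Without CMS25 replicate 1 alone, and centred anew, the values were -0.84, 0.91, 0.68, 0.72 and 0.79 over 8 arrays. Dbp with Bmal1 was -0.89 (rho -0.73) over 9 arrays, -0.59 over those 7 and -0.51 over those 8, so that relation leans on the CMS25 arrays left out. Dbp with Per1 and Per2 stood at -0.37 (rho -0.20) and 0.35 (rho 0.45) over 9 arrays, at 0.18 and -0.25 over 7, and at 0.10 and 0.04 over 8. Npas2 was the last of the 9 genes set against Dbp (-0.63, rho -0.32, then -0.29 over 7 and 0.15 over 8). The points share their arrays and their normalisation, arrays with the same number may share more than the number, and the values are descriptions with no p.

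**Figure D4:**
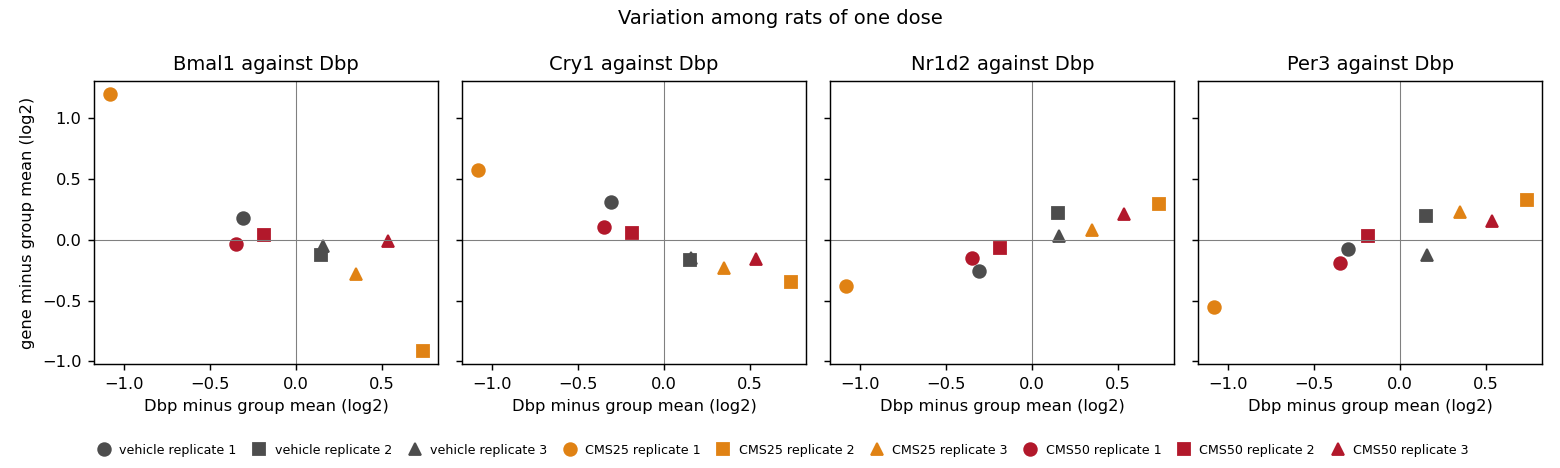
Bmal1, Cry1, Nr1d2 and Per3 against Dbp, each as log2 distance of an array from the mean of its own dose group (9 arrays, symbols by replicate, colours by dose). Cry1 falls and Nr1d2 climbs along Dbp with r = -0.96 and 0.94, and CMS25 replicate 1 is the point farthest to the left.

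Genes with a course most like that of Bmal1 were sought among all other genes tested. Over the 9 arrays as deposited, the highest Pearson r with Bmal1 belonged to Ramac (0.97), Clock (0.96), Srp14 (0.95), Rora (0.94) and Tmem184c (0.94), of 25 genes above 0.9. The highest with Dbp were Bspry (0.90), Fpgs (0.89), Morn1 (0.88), Wdr62 (0.88) and Tmem222 (0.88), and 0 genes outside the set were above 0.9. After centring on group means the lists were others, namely Pank4, Tada1, Ramac, Slc66a2 and Mrps31 for Bmal1 (0.97 to 0.95) and Ddx28, Rp9, Zfp467, Rassf7 and Xkr8 for Dbp (0.99 to 0.97). These are likenesses over 9 arrays, with 34 and 45 genes above 0.9 after centring. The values as deposited include the dose difference on which Bmal1 and Dbp were chosen. Clock and Rora were not among the genes listed for Bmal1 after centring.

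The other genes of the loops were tested in the same fit, as a list of 17 of which 11 could be tested. At CMS50 against vehicle 4 of the 11 rose and 2 fell (31.1% of all genes called, 19.6% higher and 11.4% lower), with a median difference of 0.15, against 0.05 over all genes. Bhlhe41 (1368511_at), a repressor at E-boxes, rose: it had 6.97, 7.07 and 6.68 in CMS50, against 5.38, 5.80 and 5.83 in vehicle (log2 difference 1.24, SE 0.25, limma adjusted p = 0.00718). In CMS25 it had 5.97, 6.69 and 7.00. Its difference from vehicle of 0.88 was not called (adjusted p = 0.751), nor was that of 1.18 without CMS25 replicate 1 (0.241). Over all leave-outs that difference of Bhlhe41 ran from 0.66 to 1.18. Its relative Bhlhe40 differed by 0.15 in CMS50 (SE 0.14, adjusted p = 0.424).

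Rora (1379397_at), the receptor that activates Bmal1, fell in CMS50, with 5.89, 5.85 and 5.89 against 6.49, 6.51 and 6.58 in vehicle (-0.65, SE 0.12, adjusted p = 0.00625). In CMS25 it had 6.34, 5.81 and 6.06, below every vehicle array. The difference of -0.46 was not called (adjusted p = 0.751), nor was that of -0.59 without CMS25 replicate 1 (0.241). Over all leave-outs that difference of Rora ran from -0.59 to -0.33. CMS25 replicate 1 was again the array nearest to vehicle. Averaged with its dim second probe set, Rora changed by -0.37 in CMS50.

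Hlf (1385585_at), the third D-box activator, fell in CMS50. It had 7.61, 7.90 and 8.28 in CMS50, against 8.87, 8.66 and 8.82 in vehicle (-0.85, SE 0.20, adjusted p = 0.0142, and 0.0544 without CMS50 replicate 1). CMS25 arrays had 8.42, 9.07 and 9.01, and CMS50 minus CMS25 was -0.91 (SE 0.20, adjusted p = 0.0118). Other Hlf probe sets with means of 7.60 and 8.02 gave -1.11 and -1.64 for CMS50 minus vehicle. Nfil3 (1368488_at), which represses at D-boxes, had 6.19, 5.63 and 4.75 in CMS25, against 6.95, 6.19 and 6.48 in vehicle, a difference of -1.02 that was not called (SE 0.35, adjusted p = 0.778), and CMS50 arrays had 6.73, 6.44 and 6.01. The CMS25 difference was -0.63 without CMS25 replicate 3 and -1.35 without CMS25 replicate 1 (adjusted p = 0.886 and 0.484).

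Clock (1390199_at), the usual partner of Bmal1, had 7.95, 7.98 and 8.05 in CMS50, against 8.35, 8.25 and 8.33 in vehicle. In CMS25 it had 8.46, 8.06 and 8.11, with replicate 1 above every vehicle array. The CMS50 and vehicle arrays did not overlap, but the difference of -0.32 missed the threshold (SE 0.11, adjusted p = 0.0566). It was called under 8 of 19 alternatives, a count that follows this probe set or the average of all, not the other Clock probe sets singly. Those were both other scalings, averaged probe sets, trend and robust fitting, array weights, only the 2 groups compared, and the fits without CMS25 replicate 1 or without CMS25 replicate 2, and the adjusted p ran from 0.00906 to 0.147 over the 19. The next probe sets of Clock, with means of 7.73 and 5.38, gave -0.61 and -0.48, and on each all CMS50 arrays lay below all vehicle arrays. Cry2 (1372548_at), the second cryptochrome, rose by 0.40 in CMS50 (SE 0.12, adjusted p = 0.0327), with 7.71, 7.56 and 7.64 against 7.45, 7.22 and 7.05 in vehicle. That call ended without vehicle replicates 2 or 3 and without CMS50 replicates 1, 2 or 3 (0.0557 to 0.106), and its other probe set, with a mean of 5.49, gave -0.30.

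The kinase Csnk1d (1373332_at), which marks Period proteins for breakdown, rose by 0.59 in CMS50 (SE 0.10, adjusted p = 0.00422), and Nono, an RNA-binding protein that works with Period proteins, rose by 0.67 (SE 0.10, adjusted p = 0.00296). At CMS25 they stood at -0.03 and -0.0048 against vehicle, and neither was called (adjusted p = 0.988 and 0.995). The mean over its probe sets was 0.29 for Csnk1d and 0.46 for Nono. Csnk1e was called at CMS50 minus CMS25 (0.37, SE 0.11, adjusted p = 0.0382) and not against vehicle (0.15, adjusted p = 0.354). Against CMS25, that call ended without any 1 of 7 arrays (adjusted p 0.0540 to 0.135), namely each vehicle array, CMS25 replicates 1 and 3, and CMS50 replicates 2 and 3. For CMS50 against CMS25, 4 of the 11 genes were called (30.3% of all genes), 3 higher (Csnk1d, Nono, Csnk1e) and 1 lower (Hlf). At CMS25 against vehicle 0 of the 11 were called by limma, with 3 at an unadjusted p under 0.05 (Nfil3, Bhlhe41 and Rora), beside 5.84% of all genes.

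**Figure D5:**
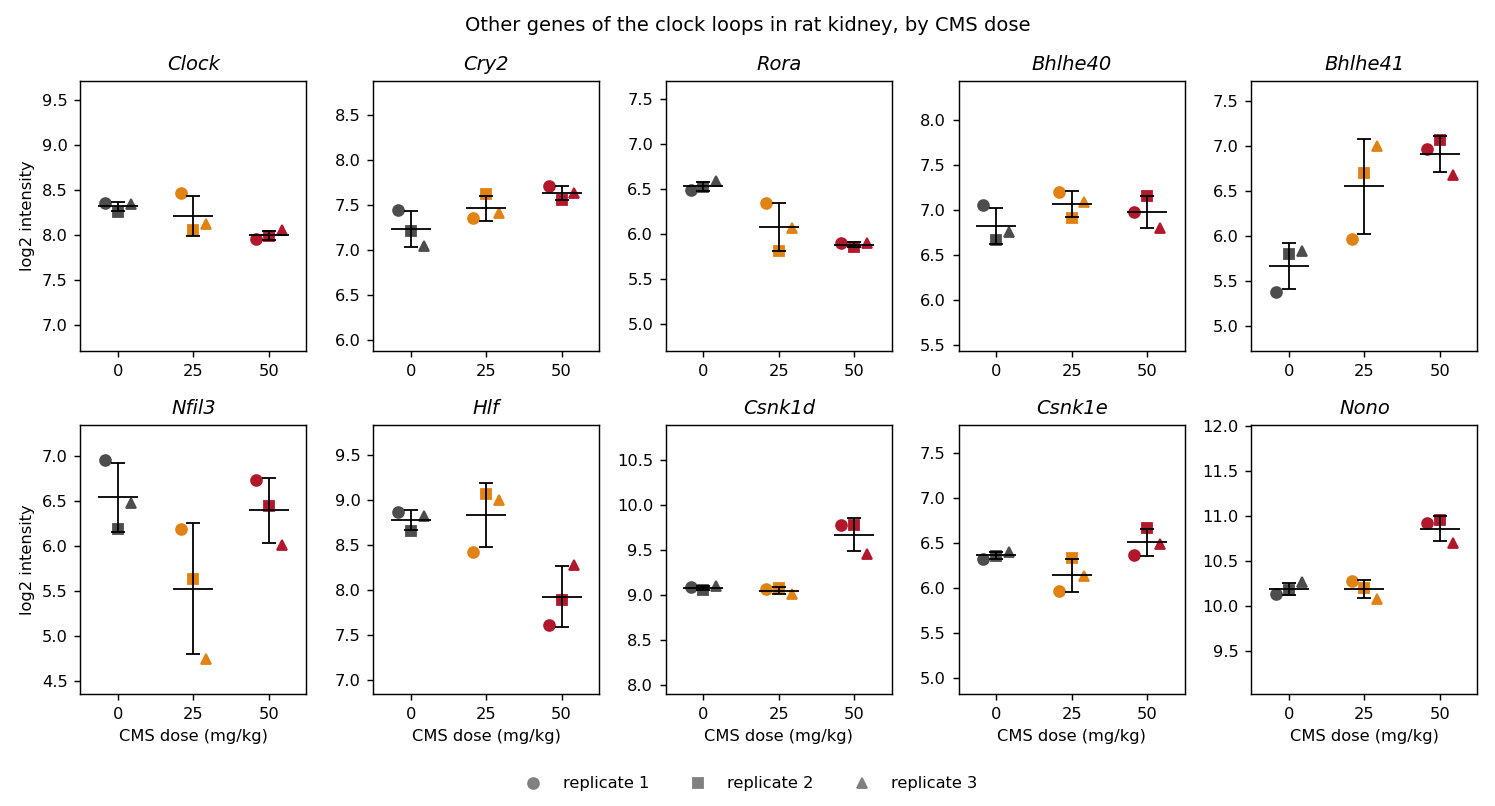
Log2 intensity of 10 further clock genes on each array (symbols, by replicate number) at 0, 25 and 50 mg/kg CMS, with group mean and SD (bars, n = 3); every panel spans 3 log2 units. The CMS50 arrays of Bhlhe41 (6.68 to 7.07) lie above the vehicle arrays, and those of Rora (5.85 to 5.89) and Hlf (7.61 to 8.28) lie below them.

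Genes that the clock is known to drive, a list of 16 with 13 tested, gave 0 calls at CMS50 against vehicle by limma (31.1% of all genes). Of the 13, 5 (38.5%) had an unadjusted p under 0.05, beside 43.4% of all genes. The median difference of the 13 was -0.22, against 0.05 over all genes. For CMS50 against CMS25, 2 were called (30.3% of all genes). The taurine transporter Slc6a6 was higher by 0.67 (SE 0.19, adjusted p = 0.0289) and the vasopressin receptor Avpr2 lower by -0.46 (SE 0.15, adjusted p = 0.0477). The call of Slc6a6 ended without CMS25 replicates 2 or 3 or CMS50 replicates 1 or 2 (0.0725 to 0.0975). That of Avpr2 ended without any 1 of 8 arrays, all but CMS50 replicate 1 (0.0524 to 0.160). At CMS25 against vehicle 0 were called and 1 had an unadjusted p under 0.05 (5.84% of all genes).

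Glucocorticoids set peripheral clocks in rodents and induce Per1, so 10 measured genes of that response, from a list of 11, were read beside the set. At CMS50 against vehicle 1 of the 10 rose and 0 fell (31.1% of all genes called), with a median of 0.04. That gene was Sdc1, a cell-surface proteoglycan, at 0.87 (SE 0.14, adjusted p = 0.00349). For CMS50 against CMS25, Sdc1 rose by 0.83 (SE 0.14, adjusted p = 0.00405) and the transcription factor Cebpd by 1.25 (SE 0.35, adjusted p = 0.0263). The call of Cebpd ended without CMS25 replicates 2 or 3 or CMS50 replicates 1 or 2 (0.0518 to 0.0839). At CMS25 against vehicle 0 of the 10 were called by limma and 1 had an unadjusted p under 0.05 (5.84% of all genes). Tsc22d3, a direct glucocorticoid target also counted among clock outputs, differed there by -0.72 (SE 0.27, adjusted p = 0.792), Fkbp5 by -0.19 and Klf9 by 0.15; they were named after their values were seen.

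Other readings also differed between the dose groups. All 9 macrophage markers that could be tested, of 10 listed, rose in CMS50 against vehicle (19.6% of all genes called higher). Their summed linear level was 560 to 638 in vehicle, 487 to 647 in CMS25, which overlaps vehicle, and 1176 to 2452 in CMS50. All 5 fibroblast markers rose in CMS50 (2335 to 5366, against 942 to 1117 in vehicle kidneys). Of the 5 markers of the loop of Henle and distal tubule 4 fell (8148 to 23544, against 33023 to 36597), where 11.4% of all genes were called lower. Called lower too were 2 of 6 proximal tubule, 2 of 6 collecting duct and 2 of 4 podocyte markers tested. So were 1 of 4 endothelium and 1 of 3 adipose markers, while 1 proximal tubule marker was called higher. At CMS25 none of the 9 marker lists had a called gene, in a comparison with 0 calls over all genes. The 5 adrenal markers measured were dim and 0 of them reached the minimum for testing. The 3′ over 5′ reading of beta-actin, a log2 difference between control probe sets that is used as a sign of RNA quality, was 2.80 to 3.08 in vehicle, 3.05 to 3.28 in CMS25 and 3.48 to 3.63 in CMS50. The same reading of GAPDH was 0.51 to 0.56 in vehicle, 0.50, 0.91 and 0.69 in CMS25 replicates 1, 2 and 3, and 0.77 to 0.89 in CMS50. Both readings were lowest in replicate 1 among the CMS25 arrays, and its GAPDH value lay below the vehicle range. The part of these readings in the clock values, and that of the hour of kill, which the labels do not give, was not tested.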

How the data were processed

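RNA of 9 whole rat kidneys was measured on Affymetrix rat expression arrays, 3 per dose. The deposited log2 values were made, per the submitters' processing notes, in Expression Console (Affymetrix) by the RMA method, with no version stated in the sources used here. The method corrects background, equalises the arrays' distributions and summarises probes, so a shift common to all genes cannot be seen and dim changes are compressed. The log2 values were used as deposited. The members, lists, tests and alternatives were chosen with earlier results of these data known. Names came from the platform annotation (20826 probe sets with 1 gene, 436 with several, 9780 with none listed), and 20758 of the 20826 have a gene identifier in the current RefSeq table of GRCr8. The 10337 genes whose brightest probe set averaged at least 5 were fitted over the 3 groups with limma 3.58.1 in R 4.3.3 (lmFit, eBayes) and called at a Benjamini-Hochberg adjusted p under 0.05. The fit was tested on simulated data. Named genes were the 10 members, Clock, Cry2, Hlf, Nfil3, Bhlhe40, Bhlhe41, up to 6 called list genes with arrays that do not overlap, the 5 genes most like Bmal1 and Dbp, and exceptions stated. Replicate numbers were not treated as pairs. Alternatives changed scaling, intensity minimum, probe set rule, variance model, weights, groups fitted and block, and left out each array. Precision is limited by the 3 arrays a group. Figures used matplotlib 3.10.9 under Python 3.11.15.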

Additional observations from a re-analysis of the deposited data

How the results depend on the processing

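The differences from vehicle of Bmal1, Npas2, Cry1, Per3, Nr1d1, Nr1d2 and Dbp kept their sign in CMS50 and in CMS25 under every alternative that could be fitted, up to 19 per comparison. Many of these alternatives could not change it. Intensity minimum, variance model, groups fitted, replicate block and testing each probe set leave these differences as they are. So does leaving out an array of the third group. At CMS50 the arrays of these genes did not overlap the vehicle arrays, so no leave-out could reverse a sign. With a minimum mean log2 of 6, Bmal1 and Nr1d1 were not tested, and with averaged probe sets Avpr2, Cebpd and Csnk1e fell under the minimum. Averaging probe sets, dim ones included, gave 0.65 for Per3 and 0.34 for Nr1d2 at CMS50 minus vehicle. Over all genes named, 1292 of 1353 values counted as unchanged, 2 moved, 42 lost a call, 17 gained one, and 0 calls reversed. For genes outside the set, unchanged meant the same side of the threshold. For the 10 members it meant a move smaller than the larger SD of the 2 groups. Leaving out 1 of 3 arrays cannot move a group mean that far, so for leave-outs of the members this count was fixed in advance. The sign itself changed in 33 of the 1353, all where the reported difference was not called, such as Per1, Tef and Nfil3 at CMS50 minus vehicle and Cry2 at CMS50 minus CMS25. Called members at CMS50 minus vehicle ran from 2 to 7 when 1 array was left out, beside 1687 to 3546 of all 10337 genes. CMS50 minus CMS25 had 1, a lower one, when each probe set was tested, beside 3710 of 13419 probe sets. For clock output genes at CMS50 minus vehicle (0 called), the count was 1 with no intensity minimum and with trend and robust fitting, 4 with array weights, 2 with only the 2 groups compared, 2 with the replicate block and 0 to 3 when 1 array was left out. For CMS50 minus CMS25 (2 called) it was 1 with no minimum, trend and robust fitting, array weights or the replicate block, 0 with averaged probe sets or only the 2 groups compared, and 0 to 2 when 1 array was left out. Glucocorticoid response genes gave 2 calls at CMS50 minus vehicle with array weights and 1 to 2 in leave-outs; for CMS50 minus CMS25 they gave 0 with averaged probe sets, 1 with only the 2 groups compared and 1 to 3 in leave-outs. Over all genes, 3211 of 10337 were called at CMS50 minus vehicle. Without vehicle replicate 2 it was 1852, and without CMS50 replicate 1, 2 or 3 it was 1711, 1687 and 3546. It was 3287 with trend and robust fitting, 4216 with array weights, 3224 with only the 2 groups compared and 3242 of 14217 with no minimum. CMS50 minus CMS25 gave 3128, and 2008 without CMS25 replicate 3. Without CMS50 replicate 1, 2 or 3 it gave 1737, 1569 and 3518. It gave 3229 with trend and robust fitting, 3352 with array weights and 2165 with only the 2 groups compared. With no minimum it gave 3180 of 14217, and with averaged probe sets 2748 of 9775. Same-numbered arrays of different groups correlated from -0.183 to 0.263 in their deviations from group means, with 3 of 9 pairs over 0.1, so the numbers were not treated as pairs, although over the clock genes replicate 1 deviated alike in the 3 groups for Cry1, Dbp, Nr1d2 and Tef; the replicate block gave 2865 and 2857, and among the gene lists it moved only the clock output counts by over 1.5 times. Beyond the lost probe sets, the cause was not tested. With 3 rats a group and a shared spread, the differences of Per1, Per2 and Tef could not be resolved on the probe sets used. On the other Per2 probe set, 1378560_at, all CMS50 arrays lay below all vehicle arrays, by -0.28 between the means. With each probe set tested, 7 members were called at CMS50 minus vehicle, 3 higher and 4 lower, beside 3915 of 13419 probe sets.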
